A study of Tigriopus californicus with 32 samples.

Results

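Frontloading describes a gene that a stress induces and that is already held at a raised level, before the stress, in animals with a history of exposure. The best known examples are heat-shock proteins (HSPs), chaperones that bind unfolded proteins and are made within hours of warming. Here a frontloaded gene of the copepod Tigriopus californicus is a gene that was higher after a single warming and was also higher, at the cool temperature, in animals raised with daily warming. The 17 genes described below met this pattern in the northern Bodega Bay population (BB-N) and lay outside the response to a single warming that the 4 studied populations had in common. They are 17 of the 18294 genes listed for BB-N and of the 21556 genes listed for any population.

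RNA-seq was done on pools of 100 whole adult copepods, males and females in equal number, from Bodega Bay (BB-N) and Santa Cruz (SC-N) in the north and from Bird Rock (BR-S) and San Diego (SD-S) in the south. Animals raised at a nonvariable 20° were sampled after 2 h at 28° (28ST) or at 20° (20NV). Animals kept in daily cycles between 20° and 28° for their whole life were sampled after 2 h in the 28° portion (28V) or at the end of the 20° portion (20V). With 2 libraries per treatment there were 32 libraries, all from populations collected in the field, and each pool mixed all tissues of its animals, so that fewer cells of a type and less RNA per cell cannot be told apart. The pools of a treatment were separate dishes filled the day before, and nothing says that they came from separate cultures, so p-values measure the spread between these dishes. The libraries of a treatment are called suffix a and suffix b after their column names, and values are cpm, the reads of a gene per scaled library size. The libraries held between 3647378 and 14509087 reads, and suffix b held more than suffix a in 16 of 16 pairs.

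The members were chosen by their values in BB-N. A member had a ratio of at least 1.7 in 28ST vs 20NV and in 20V vs 20NV (1 added to each mean), a mean of at least 10 cpm in 28ST, and a ratio above 0.5 in 28V vs 20V. In BB-N, 151 genes met the first 3 limits, and 122 of them were left out because their 28V level was at most 0.5 times their 20V level. Of the 29 that remained, 12 had a 28ST to 20NV ratio of at least 1.4 in each other population and were set aside as shared, among them 7 HSP genes, the transcription factor kayak and a monocarboxylate transporter. The other 17 were below 1.4 or not listed in at least 1 of these populations. Of the 9 genes to be removed by name, among them lectin genes, 2 genes of heat shock protein beta-1 and a gene of CD63 antigen, none was among the 29, so that the removal changed nothing. Since these values chose the members, all BB-N results and all results for 28ST vs 20NV are descriptions with no test.

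The part of the label that places the members outside the shared response held for most of them and not for all. In 10 members the 28ST to 20NV ratio was under 1.4 in each of the 3 other populations, in 3 it was under 1.4 in 2 of them, and in 2 it was under 1.4 in 1. The remaining 2 members, comp38417 and TCALIF_11866, were under 1.4 in none. They are members because BR-S has no row for them. By the filter of the study this means that fewer than 2 of 4 libraries reached 2 cpm there. The comp38417 transcript was assembled de novo and received only reads left over from the transcripts of the annotated genome. The paper gives this as the reason why some de novo transcripts had no reads, so its absent row need not mean low expression. The 2 members had 28ST to 20NV ratios of 23.6 and 7.95 in SC-N and 7.58 and 9.17 in SD-S. For these genes "outside the shared response" thus means a missing measurement in BR-S. In all, 4 members lacked a row in at least 1 population, and 6 members had a ratio of 1.4 or more in at least 1 other population.

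Descriptions were given for 5 of the 17 members, 5 more were listed without any, and 7 were in none of the lists of described genes. Identifiers starting with TCALIF are transcripts of the annotated genome, and 7 members are of this kind. The other 10 (comp or Contig) are de novo transcripts, which make up 58.8% of the members and 35.6% of the 17110 genes in all 3 BB-N tables. Of the lists of genes grouped by words in their descriptions, only the HSP list held a member, TCALIF_11866, against 7 genes of the shared set. Cuticle proteins, with 21 genes, and lectins, with 6, occurred among the 122 genes left out for their fall in 28V, and 0 of either were members.

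The members fell into 5 genes that were higher again in 28V than in 20V, in both libraries, and 12 that were not, a division made after their values were seen. The first 5 comprise all members but nocturnin that have a description, and comp47559.

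The comp38417 transcript (comp38417_c0_seq1_22939) is described as "loc560210 protein" and is named an HSP 70 gene by the study. HSP 70 proteins bind exposed hydrophobic stretches of unfolded proteins and release them in a cycle driven by ATP. Its value was 1004 and 1141 cpm in 28ST, against 16.5 and 21.3 cpm in 20NV. In the variable regime it was 801 and 586 cpm in 28V, against 140 and 159 cpm in 20V, and 20V was in turn above 20NV (138 and 155 cpm against 17.5 and 22.4 cpm in the table of these treatments). No libraries overlapped between treatments, and the BB-N ratios were 53.9 for 28ST to 20NV, 7.05 for 20V to 20NV and 4.63 for 28V to 20V. Reads with several matches were dropped, and de novo transcripts such as this one received only reads left over from the genomic transcripts. Reads that HSP 70 copies have in common can thus be missing here, so the level of this copy is uncertain.

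TCALIF_11866 is a small heat-shock protein, of the class of chaperones that hold unfolding proteins without using ATP. It was at 483 and 524 cpm in 28ST and at 20.5 and 47.2 cpm in 20NV. In 20V it was at 138 and 155 cpm, against 21.7 and 49.7 cpm in 20NV, and in 28V at 313 and 257 cpm, against 140 and 158 cpm in 20V. The lowest 20V library was thus above the highest 20NV library, with a mean ratio of 4.03.

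The comp32136 transcript (comp32136_c0_seq1_17426) is described as a beta-ig-h3 fasciclin protein, a family of secreted or membrane-bound proteins that act in cell adhesion. It was at 42.2 and 48.7 cpm in 28ST and at 7.92 and 4.93 cpm in 20NV. In 28V it was at 80.1 and 82.8 cpm, against 27.1 and 11.2 cpm in 20V. Its 28V mean (81.5 cpm) was above its 28ST mean (45.4 cpm), which was so in 3 of the 17 members, although these means come from tables scaled apart. The 28ST to 20NV ratio was 3.90 in SD-S and 0.859 and 0.983 in BR-S and SC-N.

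Contig40_39 is described as puromycin sensitive, isoform a, a term used for a cytosolic aminopeptidase that trims peptides. It was at 51.5 and 59.8 cpm in 28ST, against 10.2 and 12.1 cpm in 20NV. In 20V it was at 23.2 and 22.4 cpm, against 10.7 and 12.7 cpm in 20NV, and in 28V at 40.3 and 36.4 cpm, against 23.6 and 22.9 cpm in 20V. The libraries of each treatment lay close together and no treatments overlapped. Its 28ST to 20NV ratio was above the limit of 1.4 in SC-N, at 1.64, and below it in SD-S (1.29) and BR-S (0.878).

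The comp47559 transcript (comp47559_c0_seq5_35364) has no description. It was at 66.8 and 74.2 cpm in 28ST, against 5.34 and 10.4 cpm in 20NV, and at 18.2 and 26.2 cpm in 20V, against 5.65 and 10.95 cpm in 20NV. In 28V it was at 52.2 and 37.4 cpm, against 18.4 and 26.7 cpm in 20V. Of the other populations, BR-S had a ratio of 7.98 in 28ST vs 20NV and SC-N of 1.01, while SD-S had no row. In BR-S it was at 75.9 and 51.0 cpm in 28ST, against 8.16 and 5.98 cpm in 20NV.

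For these 5 members the 20V level held a part of the rise after a single warming. Expressed as a share of the gain in 28ST, with each gain taken relative to the 20NV mean of its own table, 20V held 11.4% in comp38417, 21.0% in comp47559, 22.4% in TCALIF_11866, 23.6% in Contig40_39 and 29.3% in comp32136. In the other 12 members this share lay between 41.1% (comp38471) and 248% (comp44700), and in 4 of them 20V was at or above the gain seen in 28ST. The rule itself used both gains of this share. Since it set a 20V to 20NV ratio of at least 1.7, members with a small 28ST ratio had to have a large share. The contrast between the 5 and the 12 is therefore in part set by the rule.

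**Figure D1:**
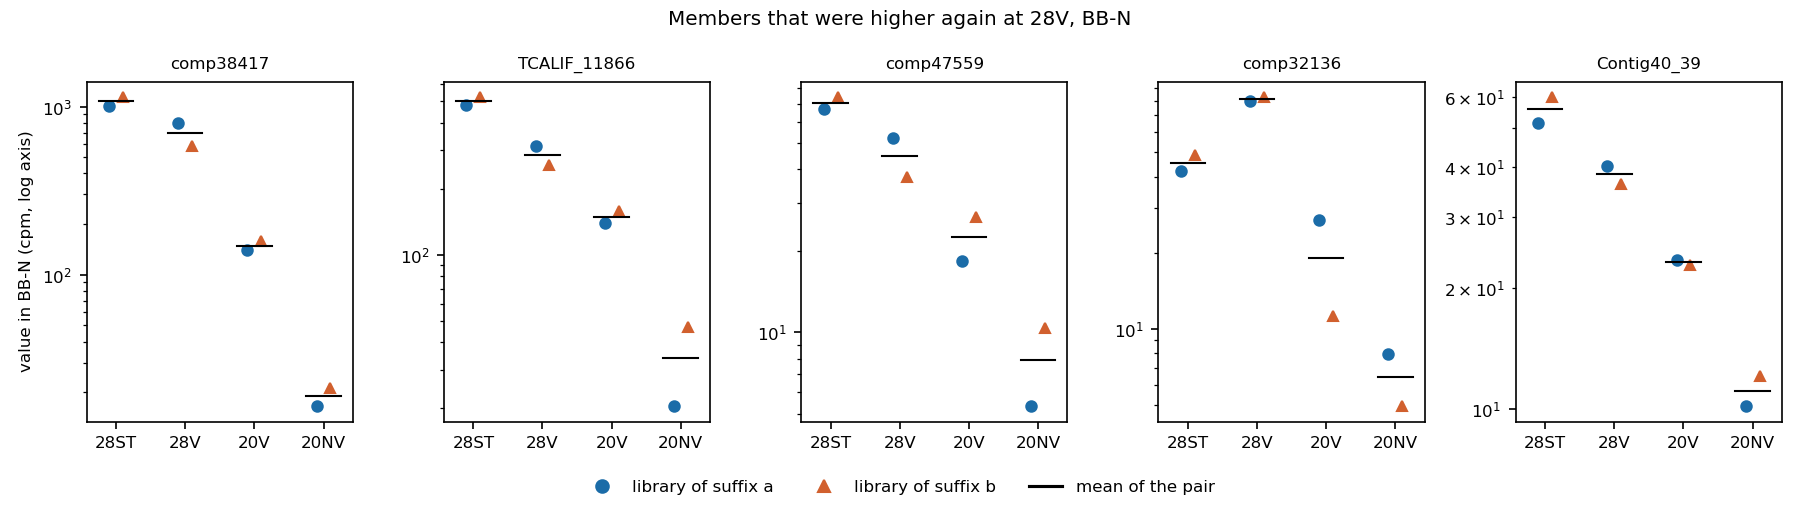
Values in cpm (log axis) of the 5 members with higher values in 28V than in 20V, in the BB-N libraries of 28ST, 28V, 20V and 20NV, with circles for suffix a, triangles for suffix b and a line for the mean. The comp38417 values run between 16.5 cpm in 20NV and 1141 cpm in 28ST, and for comp32136 the 28V pair (80.1 and 82.8 cpm) lies above the 28ST pair. The 28ST and 20NV values and the 28V and 20V values come from tables scaled apart.

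The other 12 members had smaller ratios, between 1.71 and 3.06 in 28ST vs 20NV, and in most these rested on suffix a. All 12 were higher in suffix a than in suffix b of 28ST, with a median ratio of 2.77 between the suffixes, whereas 8821 of 17730 genes were higher in suffix a and their median ratio was 0.998. In 20V, 11 of the 12 were higher in suffix a (median ratio 1.99), in 20NV 10 of 12 (1.35) and in 28V 5 of 12 (0.753). The first 5 members showed the opposite in 28ST, with 0 of 5 higher in suffix a. Taken by suffix, the 28ST to 20NV ratio reached 1.7 in 11 of the 12 in suffix a and in 4 of the 12 in suffix b, and in 2 of the 12 the suffix b ratio was below 1. The exceptions were TCALIF_12530, TCALIF_02476 and comp43549, where suffix b had the larger ratio. Requiring each suffix to reach 1.7 in both comparisons left 6 members, the first 5 and comp39380.

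Markers of tissue moved with suffix a of 28ST in BB-N. The sum over 37 muscle genes (myosins, troponins, tropomyosins and others) was 28564 and 16590 cpm in 28ST and 14621 and 21846 cpm in 20NV. The sum over 5 egg yolk genes was 4000 and 14013 cpm in 28ST and 16066 and 9465 cpm in 20NV. No gene of either list was at 0 in any library, and 34 of 37 muscle genes and 0 of 5 yolk genes had a log2 fold change above 0 in 28ST vs 20NV, though 0 of either were called by limma. In 20V, with its own excess in suffix a, the muscle sum was 18430 and 11395 cpm, against 15476 and 22984 cpm in 20NV, and 3 of 37 muscle genes were above 0. Their part in the values of the members was not tested.

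**Figure D2:**
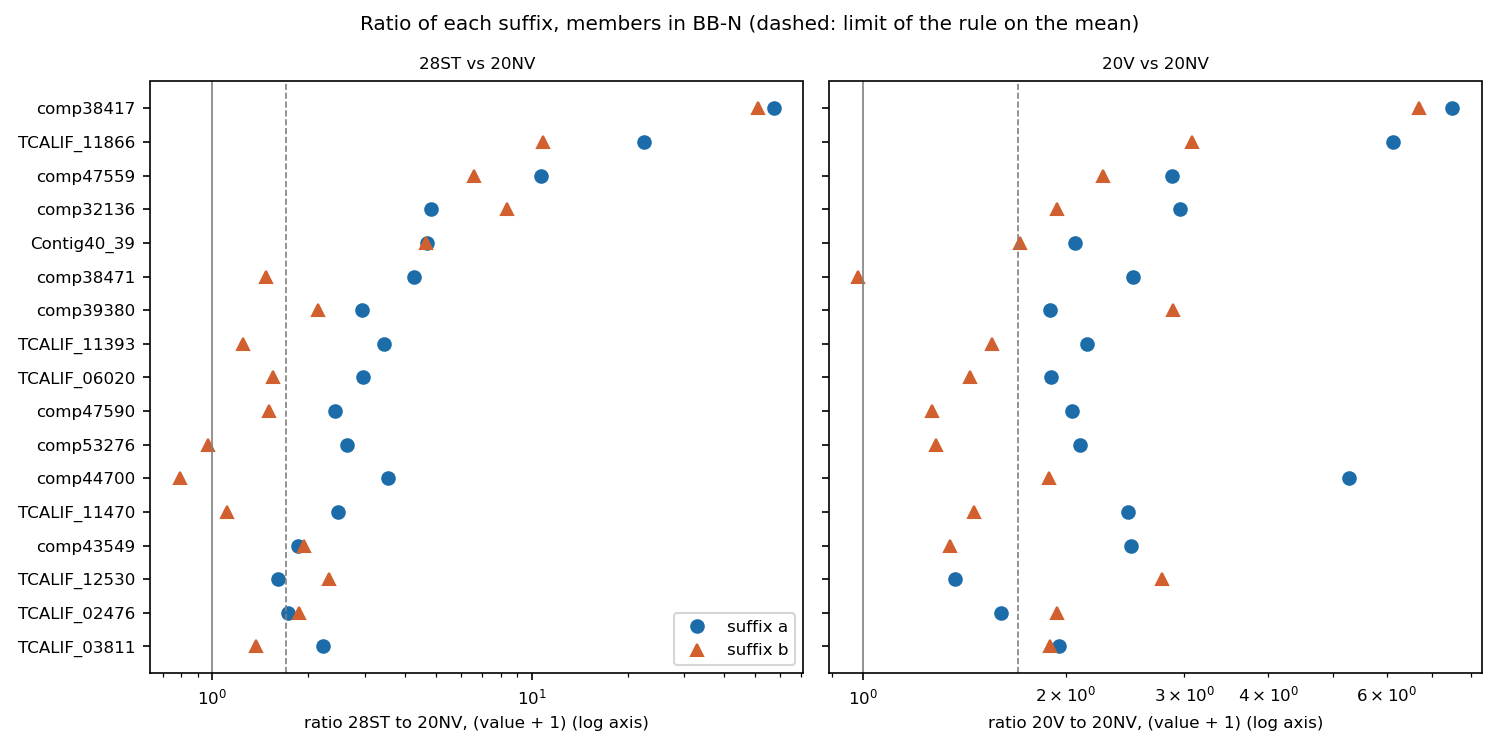
Ratios of each suffix in BB-N for 28ST to 20NV (left) and 20V to 20NV (right), with 1 added to each value, on log axes, for the 17 members. Circles are suffix a and triangles suffix b, the grey line marks 1 and the dashed line the limit of 1.7 that the rule sets on the ratio of means. The suffix b points of comp44700 (0.791) and comp53276 (0.970) lie below 1 in 28ST vs 20NV, and those of the first 5 members are all above 4.

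Among the 12, comp38471 (comp38471_c0_seq1_22998, no description) was at 1395 and 373 cpm in 28ST, against 324 and 253 cpm in 20NV, and at 865 and 261 cpm in 20V, against 343 and 266 cpm in 20NV. Suffix b thus contributed a ratio of 1.48 in 28ST vs 20NV and of 0.984 in 20V vs 20NV, and the 20V and 20NV libraries overlapped. The comp44700 transcript (comp44700_c0_seq1_30567, no description) had the largest 20V to 20NV ratio after the 2 HSP genes of the members, at 3.28, and was at 328 and 167 cpm in 20V, against 61.4 and 88.1 cpm in 20NV. After a single warming it was at 208 and 66.0 cpm in 28ST, against 58.0 and 83.7 cpm in 20NV, so that suffix b was lower in 28ST. The comp43549 transcript (comp43549_c1_seq1_29100, no description) differed from these in having close suffixes after a single warming, with 122 and 106 cpm in 28ST, against 65.2 and 54.4 cpm in 20NV.

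Nocturnin (TCALIF_12530), which in mammals is a rhythmically expressed phosphatase, is the only other member with a description. It was at 127 and 67.6 cpm in 28ST, against 78.5 and 28.5 cpm in 20NV, and at 114 and 85.0 cpm in 20V, against 83.1 and 29.97 cpm in 20NV. The 28ST and 20NV libraries overlapped, while each suffix had a ratio above 1 in both comparisons. TCALIF_02476 (no description) was likewise higher in each suffix, with 36.6 and 24.3 cpm in 28ST, against 20.8 and 12.5 cpm in 20NV. The comp39380 transcript (comp39380_c0_seq1_24069, no description) was at 35.4 and 13.1 cpm in 28ST, against 11.4 and 5.57 cpm in 20NV, and at 23.7 and 18.8 cpm in 20V, against 12.02 and 5.86 cpm in 20NV. It was therefore above 20NV in both libraries of either treatment.

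The last 6 members have no description. TCALIF_11393 was at 66.8 and 19.7 cpm in 28ST, against 18.6 and 15.6 cpm in 20NV, and TCALIF_11470 at 43.3 and 13.1 cpm, against 16.9 and 11.7 cpm. TCALIF_06020 was at 24.9 and 7.74 cpm in 28ST, against 7.74 and 4.66 cpm in 20NV, and comp53276 (comp53276_c0_seq1_44599) at 44.2 and 9.71 cpm, against 16.2 and 10.04 cpm. In each of these 4 the suffix a library of 28ST stood far above the other 3 libraries. TCALIF_03811 was at 11.1 and 10.1 cpm in 28ST, against 4.47 and 7.12 cpm in 20NV, and comp47590 (comp47590_c1_seq1_35444) at 21.1 and 9.58 cpm, against 8.09 and 6.03 cpm. TCALIF_03811 was thus low in all 4 libraries.

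In 28V vs 20V the median log2 fold change of the 12 members was -0.62, with 2 of 12 above 0. The division set these 12 apart as not higher in both 28V libraries, so a low median follows in part from it. The rule also chose the members for high values in the 20V libraries, which are the reference here. Falls are therefore favoured by the rule, and the share of all genes is no like background for them. By suffix, the median ratio was 0.518 in suffix a, with 0 of 12 above 1, and 1.02 in suffix b, with 6 of 12 above 1. Both 28V libraries were below both 20V libraries in 5 of the 12, beside 17.5% of all genes. TCALIF_06020, for example, was at 6.47 and 5.12 cpm in 28V, against 16.7 and 7.65 cpm in 20V, and TCALIF_02476 at 25.7 and 19.1 cpm, against 36.4 and 27.0 cpm. The members comp39380, TCALIF_11393 and comp43549 had mean ratios of 0.996, 1.02 and 1.02.

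In the limma fits of BB-N, 5 of 17 members were called higher in 28ST vs 20NV, beside 0.316% of all genes, and they were the 5 that were higher again in 28V. In 20V vs 20NV 5 were called higher (comp38417, TCALIF_11866, comp47559, comp39380 and comp44700), beside 1.16% of all genes, and in 28V vs 20V 1 was called higher (comp38417), beside 0.0962%. Both libraries were above both of the other treatment in 12 members in 28ST vs 20NV (18.9% of all genes) and in 5 in 28V vs 20V (16.6%), and below in 5 in 28V vs 20V (17.5%). Nothing can be read from these counts, since the same values chose the members. In the HSP list, 18 of 38 genes were called higher in 28ST vs 20NV in BB-N, 8 of 37 in 20V vs 20NV and 7 of 37 in 28V vs 20V, and none was called lower. The 25 genes that the study lists as changed by a single warming in every population, which it chose on these samples, had 24 called higher in 28ST vs 20NV and 8 in 20V vs 20NV.

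The limits of the rule fell among close values. Just inside the limit of 1.7 were TCALIF_03811 (1.71) and TCALIF_02476 (1.78) for 28ST to 20NV, and comp47590 (1.71) and TCALIF_06020 (1.72) for 20V to 20NV. Just outside were comp29710 (1.69) for 28ST to 20NV and, for 20V to 20NV, comp44253 (1.69) and TCALIF_04551 (1.69). For the 28V to 20V limit of 0.5, comp53276 (0.5005) and TCALIF_11470 (0.508) were inside and TCALIF_08758 (0.498) and comp51670 (0.496) outside. For the level in 28ST, TCALIF_03811 (10.6 cpm) and comp47590 (15.3 cpm) were inside and Contig1540_1539 (9.72 cpm) and Contig2624_4391 (8.29 cpm) outside. The limit of 1.4 in the other populations separated more widely, since among genes listed in all 3 the lowest ratio was at most 1.07 inside (comp39380) and at least 1.53 outside (kayak, TCALIF_11019).

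The response to daily warming in the other populations (28V vs 20V) used no library of the rule. It asks whether members that were frontloaded in BB-N responded to the warm portion of the day elsewhere. In SC-N, where 16 members were measured, both HSP genes rose. The comp38417 transcript was at 435 and 903 cpm in 28V, against 47.5 and 51.4 cpm in 20V, a log2 fold change of 3.64 (SE 0.44, limma adjusted p = 3.2e-13). TCALIF_11866 was at 168 and 210 cpm in 28V, against 29.3 and 30.1 cpm in 20V, a log2 fold change of 2.62 (SE 0.40, limma adjusted p = 2.6e-08). Each 28V library was far above each 20V library in both genes.

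A second group of members fell in SC-N in 28V in the limma fit, though not by edgeR or DESeq2. The comp43549 transcript was at 31.5 and 260 cpm in 28V, against 439 and 435 cpm in 20V (log2 fold change -2.25, SE 0.45, limma adjusted p = 9.4e-05). The comp44700 transcript was at 36.3 and 155 cpm in 28V, against 421 and 227 cpm in 20V (-2.02, SE 0.43, limma adjusted p = 0.00035), and comp38471 at 100 and 790 cpm, against 1043 and 1209 cpm (-1.99, SE 0.57, limma adjusted p = 0.027). In these 3 the suffix a library of 28V was several times below that of suffix b, and in all 3 both 28V libraries were below both of 20V. TCALIF_03811 was called higher (1.39, SE 0.41, limma adjusted p = 0.034) with 113 and 17.3 cpm in 28V, against 21.1 and 12.6 cpm in 20V, so that its treatments overlapped.

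In all, 3 of 16 members were called higher in 28V vs 20V in SC-N, beside 0.519% of all genes, and 3 were called lower, beside 1.52%. On the recovered reads, with the block kept, both tests of edgeR and DESeq2 each called 2 members higher and 0 lower, so that the 3 falls were called by limma only. Over all genes, the likelihood ratio test of edgeR called 48 higher and 55 lower, its quasi-likelihood test 53 and 78, and DESeq2 32 and 11. Both libraries were higher in 4 members (13.1% of all genes) and lower in 6 (17.0%), and the median log2 fold change of the members was -0.02, against 0.01 over all genes. In this table limma took the spread of a gene wholly from the trend over all genes, so the spread of a single gene did not enter its p. Without the replicate block 0 of 16 members were called (adjusted p = 0.94 for all 6). Over all alternatives the limma, edgeR or DESeq2 adjusted p lay between 3e-13 and 0.94 for comp38417 and between 2.6e-08 and 0.94 for TCALIF_11866, and it reached 1.0 for the other 4. Fits that left out a library also had no replicate block, and only their effect sizes are given. Without suffix a of 28V the log2 fold changes of comp38471, comp44700, comp43549 and TCALIF_03811 were -0.51, -0.99, -0.75 and 0.07, and without suffix b of 28V they were -3.47, -3.06, -3.75 and 2.71. Beside these falls, the sum over 41 muscle genes was 14763 and 26371 cpm in 28V and 32944 and 29387 cpm in 20V, and the sum over 5 yolk genes was 386 and 30210 cpm in 28V and 9275 and 49832 cpm in 20V. Their part in the result was not tested.

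In BR-S, comp47559 was at 26.5 and 78.9 cpm in 28V, against 11.8 and 19.6 cpm in 20V, and rose with a log2 fold change of 1.53 (SE 0.24, limma adjusted p = 0.043). It was the only 1 of 15 members called, beside 0.142% of all genes called higher. It lost the call without the replicate block (adjusted p = 1.0, with a range of 2.8e-05 to 1.0 over the alternatives run in limma, edgeR and DESeq2). Fits that left out a library also had no replicate block. Without suffix b of 28V the log2 fold change was 0.76, and without suffix a of 28V it was 2.30. Both libraries were higher in 4 members (13.4% of all genes) and lower in 1 (16.0%).

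In SD-S no member was called in 28V vs 20V by limma, beside 0.0% of all genes. At an unadjusted p under 0.05 there were 5 of 15 members in limma, beside 761 of 17987 genes. Among these 5 members, comp38417, TCALIF_11866 and comp44700 were higher, and TCALIF_12530 and TCALIF_02476 were lower. Both tests of edgeR and DESeq2 also called 0 members. Over all genes, the likelihood ratio test of edgeR called 87 higher and 32 lower, DESeq2 38 and 12, and the quasi-likelihood test 0 and 0. Both HSP genes were higher in both libraries. The comp38417 transcript was at 50.6 and 23.0 cpm in 28V, against 11.2 and 15.0 cpm in 20V, and TCALIF_11866 at 50.4 and 55.7 cpm, against 31.0 and 44.9 cpm. With comp39380, 3 members were higher in both libraries (12.6% of all genes), and 3 were lower (13.0%). Their median log2 fold change was 0.05 (-0.01 over all genes), while the 12 genes set aside as shared, which were chosen partly by their rise in 28ST in this population, had a median of 1.04.

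**Figure D3:**
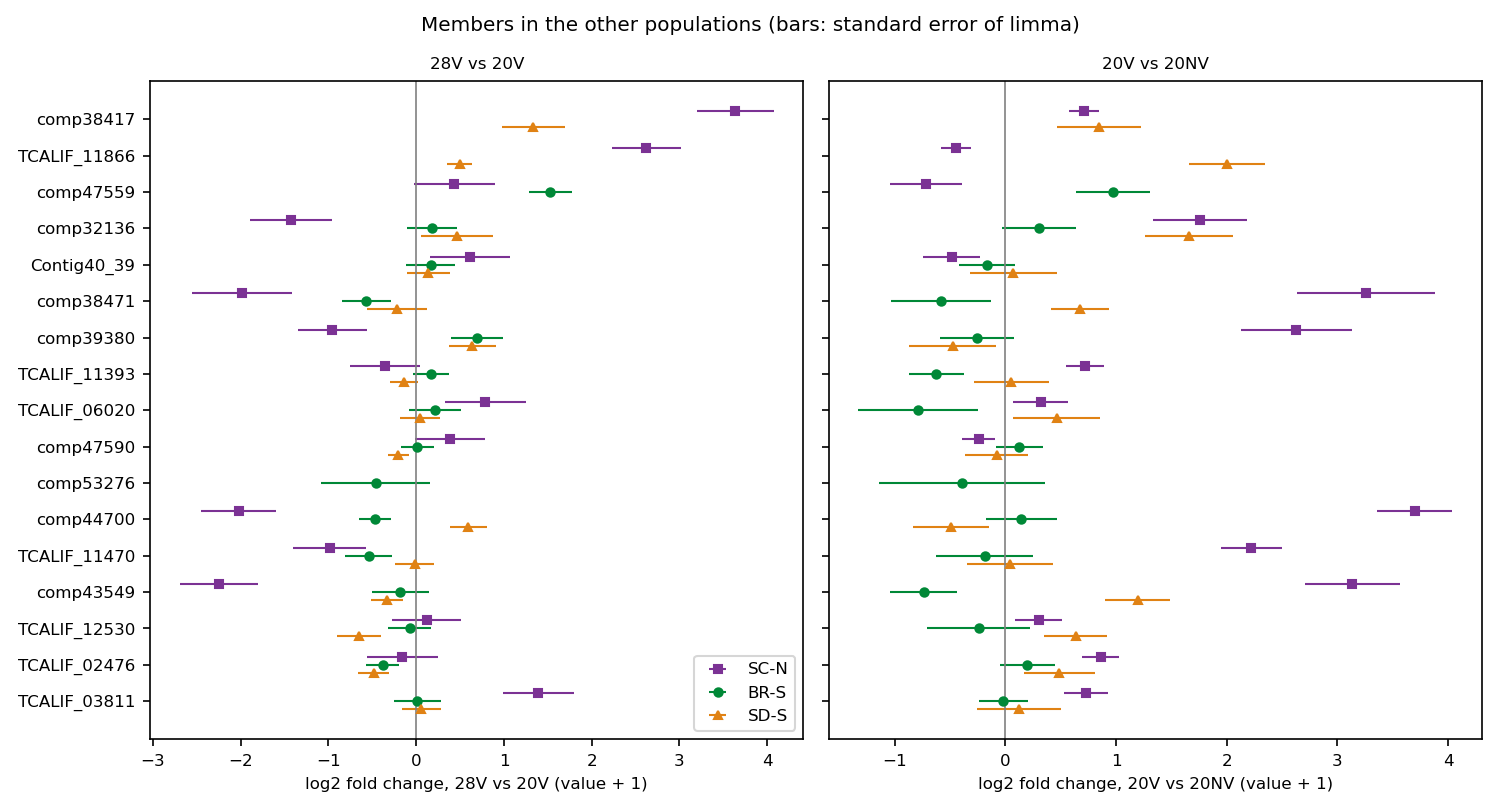
Log2 fold changes of the 17 members in SC-N (squares), BR-S (circles) and SD-S (triangles) for 28V vs 20V (left) and 20V vs 20NV (right), on log2(value + 1), with bars for the standard error of limma. In 28V vs 20V the SC-N points run between -2.25 (comp43549) and 3.64 (comp38417), and in 20V vs 20NV 10 of the 16 SC-N members and 6 of the 15 SD-S members had both libraries above those of 20NV. Members without a point had no row in that table.

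The comparison of 20V with 20NV asks whether the members that were raised at 20° in BB-N under the variable regime were also raised elsewhere. The 20V libraries of the other populations were not used by the rule, but the 20NV libraries were, through the limit on 28ST vs 20NV, and the 20V libraries are shared with the comparison of 28V with 20V. In SD-S, 3 of 15 members rose. TCALIF_11866 was at 30.7 and 44.5 cpm in 20V, against 6.41 and 11.2 cpm in 20NV, a log2 fold change of 2.00 (SE 0.35, limma adjusted p = 1.4e-06). The comp32136 transcript was at 7.42 and 10.5 cpm in 20V, against 2.87 and 1.51 cpm in 20NV (1.66, SE 0.39, limma adjusted p = 0.0023). The comp43549 transcript was at 65.3 and 87.5 cpm in 20V, against 40.7 and 25.8 cpm in 20NV (1.20, SE 0.29, limma adjusted p = 0.0035).

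Without a call, comp38417 was at 11.1 and 14.8 cpm in 20V, against 5.57 and 8.04 cpm in 20NV, and nocturnin (TCALIF_12530) at 77.6 and 72.8 cpm, against 65.6 and 35.1 cpm, and in both the libraries did not overlap. The comp39380 transcript was the only member lower in both 20V libraries, with 2.91 and 3.86 cpm in 20V, against 5.4 and 4.73 cpm in 20NV.

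The 3 calls stood beside 1.4% of all genes called higher in SD-S. The libraries of 20V were both above those of 20NV in 6 members (13.0% of all genes) and both below in 1 (10.2%), with a median log2 fold change of 0.46 over the members and 0.03 over all genes. For the genes that fell at 28V in BB-N and were therefore left out, the SD-S median was 1.60. The trend alone set the spread in this table too, and without the replicate block 0 of the 3 calls were kept (adjusted p = 0.09 for TCALIF_11866, 0.31 for comp32136 and 0.36 for comp43549). Over the alternatives in limma, edgeR and DESeq2 the adjusted p reached 0.63, 1.0 and 1.0 in these genes. Leaving out single libraries, which also took out the block, gave log2 fold changes between 1.64 and 2.36 for TCALIF_11866. For comp32136 they lay between 1.35 and 1.97, and for comp43549 between 0.88 and 1.51. The muscle sum was 10848 and 9773 cpm in 20V and 12696 and 13016 cpm in 20NV. The sum over 5 yolk genes was 18721 and 21005 cpm in 20V and 24572 and 29910 cpm in 20NV, with 0 of 5 genes above 0 and a median log2 fold change of -0.52, and 13 of 37 muscle genes were above 0. Their part in the result was not tested.

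The widest differences between 20V and 20NV were in SC-N. The comp44700 transcript was at 429 and 232 cpm in 20V, against 20.1 and 27.1 cpm in 20NV, a ratio of 13.5. The comp43549 transcript was at 446 and 444 cpm in 20V, against 27.4 and 89.7 cpm in 20NV, and comp38471 at 1062 and 1234 cpm, against 46.2 and 303 cpm. The comp39380 transcript was at 74.3 and 40.1 cpm in 20V, against 5.21 and 12.03 cpm in 20NV, and TCALIF_11470 at 28.1 and 41.0 cpm, against 3.65 and 11.1 cpm. In these 5 members the lowest 20V library was more than 2 times the highest 20NV library, and none of them has a description. Smaller differences without overlap were seen in comp32136 (8.31 and 7.0 cpm in 20V, against 0.695 and 2.84 cpm in 20NV) and in TCALIF_11393 (77.3 and 58.4 cpm, against 39.6 and 41.3 cpm). TCALIF_02476, at 33.7 and 28.0 cpm in 20V, against 16.5 and 16.4 cpm in 20NV, and TCALIF_03811, at 21.5 and 12.9 cpm, against 11.6 and 8.02 cpm, were likewise higher in both libraries.

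None of the 16 members passed the test in SC-N, where limma called 0.136% of all genes in either direction. At an unadjusted p under 0.05 there were 11 of 16 members in limma, beside 5791 of 18326 genes. The limma adjusted p was 0.063 for comp44700, 0.064 for comp43549 and TCALIF_11470, 0.071 for comp39380 and 0.072 for comp38471. On the recovered reads, the likelihood ratio test of edgeR called 7 members, DESeq2 called 5 (these same 5) and the quasi-likelihood test of edgeR called 0. Over all genes, the likelihood ratio test called 1555 higher and 916 lower, DESeq2 588 and 344, and the quasi-likelihood test 2 and 9. For comp44700 the adjusted p lay between 1.4e-15 and 0.14 over the alternatives in limma, edgeR and DESeq2. Leaving out single libraries, which also took out the replicate block, gave median log2 fold changes of the members between 0.62 and 0.95. Both libraries of 20V were above those of 20NV in 10 members, beside 31.7% of all genes, and below in 3, beside 29.4%. The median log2 fold change was 0.72 over the members and 0.02 over all genes, and it was 0.71 over the genes left out for their fall at 28V in BB-N.

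Muscle genes moved in the same direction in these libraries. Their sum over 42 genes was 33525 and 29986 cpm in 20V and 9591 and 12478 cpm in 20NV, and 37 of 42 had a log2 fold change above 0, with a median of 1.31. The sum over 5 yolk genes was 9438 and 50844 cpm in 20V and 12279 and 142354 cpm in 20NV. In 28V, suffix a was below suffix b in the muscle sum and in 4 of the 5 members, all but comp39380. The part of tissue composition in the values of the members was not tested.

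**Figure D4:**
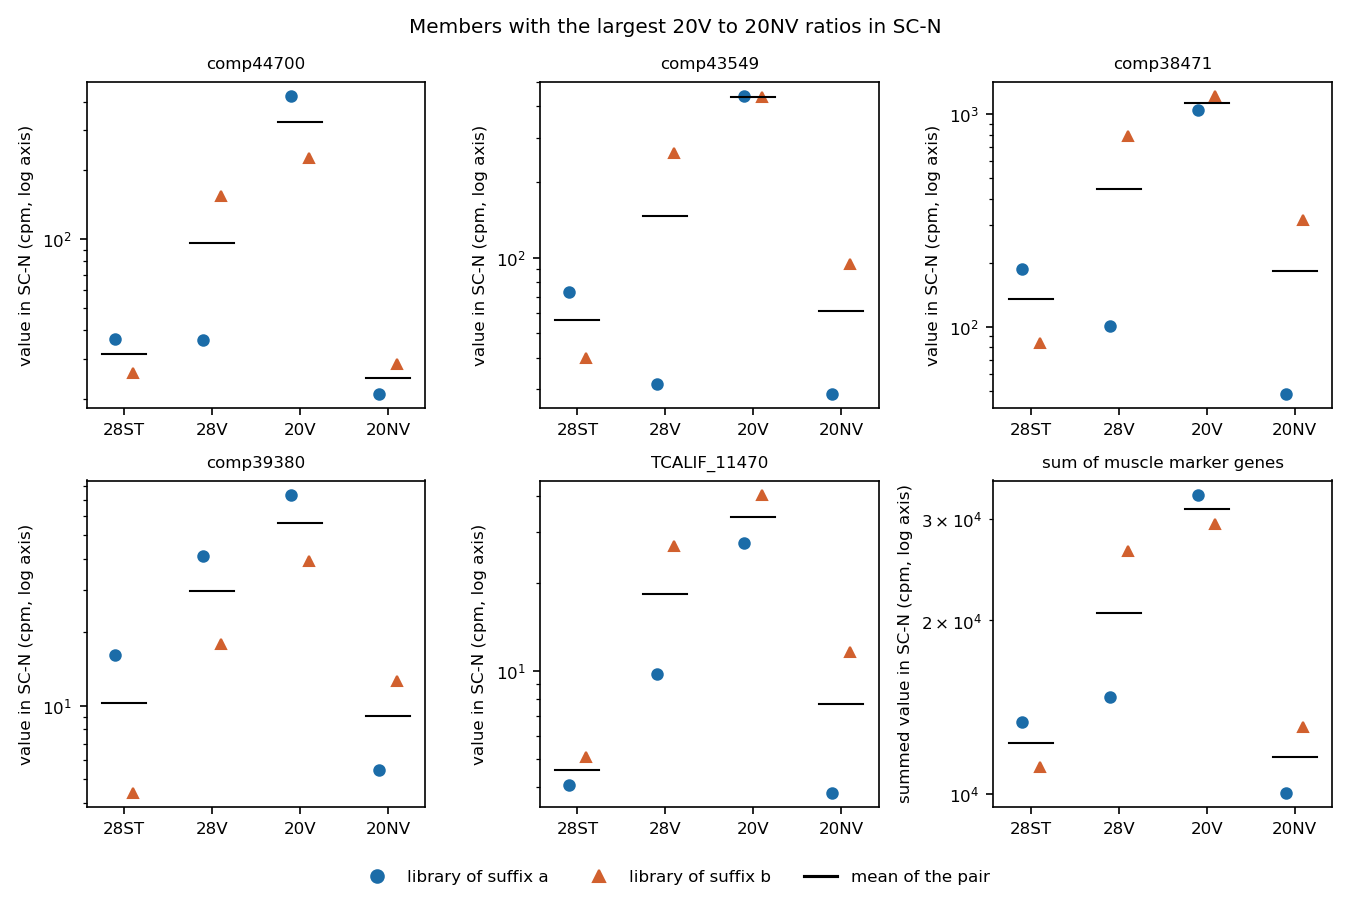
Values in cpm (log axes) of the 5 members with the largest 20V to 20NV ratios in SC-N, and the summed value of the muscle genes, in the libraries of 28ST, 28V, 20V and 20NV, with circles for suffix a, triangles for suffix b and a line for the mean. The 2 libraries of 20V lie above all libraries of 28ST and 20NV in each panel, and suffix a of 28V lies far below suffix b for comp44700 (36.3 against 155 cpm), comp43549 and comp38471. The 28ST and 20NV values and the 28V and 20V values come from tables scaled apart.

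Of the 2 HSP members, TCALIF_11866 was lower and comp38417 higher in both 20V libraries of SC-N. TCALIF_11866 was at 29.8 and 30.7 cpm in 20V, against 41.2 and 42.1 cpm in 20NV (log2 fold change -0.45, SE 0.14, limma adjusted p = 0.12), and comp38417 at 48.4 and 52.5 cpm, against 29.4 and 31.3 cpm (0.71, SE 0.13, limma adjusted p = 0.071). Neither passed the test. Contig40_39 was at 9.37 and 5.60 cpm in 20V, against 10.8 and 10.4 cpm in 20NV, and comp47559 at 2.13 and 2.60 cpm, against 5.73 and 3.52 cpm. Of the 5 members that were higher again at 28V in BB-N, 2 were thus higher and 3 lower in both 20V libraries of SC-N, without a call.

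In BR-S no member was called in 20V vs 20NV by limma, beside 0.0% of all genes. At an unadjusted p under 0.05 there was 1 of 15 members in limma. A small share of all genes was also under this limit, so nothing can be read from this 1 member. Both tests of edgeR and DESeq2 called 0 members. The likelihood ratio test of edgeR called 43 genes higher and 36 lower over all genes, DESeq2 14 and 5, and the quasi-likelihood test 0 and 0. Among the members only comp47559 was higher in both 20V libraries, beside 17.1% of all genes, with 11.5 and 19.2 cpm in 20V, against 8.27 and 6.10 cpm in 20NV. TCALIF_11393, with 33.1 and 28.2 cpm in 20V, against 40.2 and 56.3 cpm in 20NV, and comp43549 were lower in both, beside 16.5%. The comp44700 transcript, with the largest ratio in SC-N, was at 148 and 96.2 cpm in 20V, against 90.0 and 129 cpm in 20NV, and its libraries overlapped. The median log2 fold change of the members was -0.19, against 0.00 over all genes.

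The 28ST vs 20NV values of the other populations, which the rule used, are given as a description. In SD-S, comp38417 was at 75.7 and 39.96 cpm in 28ST, against 5.59 and 7.92 cpm in 20NV, and TCALIF_11866 at 96.5 and 79.8 cpm, against 6.44 and 10.996 cpm. In SC-N they were at 697 and 847 cpm, against 30.8 and 32.8 cpm, and at 298 and 410 cpm, against 43.2 and 44.1 cpm. The 12 members that did not rise again at 28V had median log2 fold changes of 0.04, -0.15 and -0.07 in 28ST vs 20NV for the populations SC-N, BR-S and SD-S, and the rule holds these values down by its limit of 1.4.

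Differences among SC-N, BR-S and SD-S were tested for 28V vs 20V and 20V vs 20NV, a test added after the values had been seen. The 3 differences for 20V vs 20NV rest on 20NV libraries that the rule used through its limit on 28ST vs 20NV. For 20V vs 20NV, TCALIF_11866 differed between SC-N and SD-S (log2 difference -2.45, SE 0.29, limma adjusted p = 0.042, with 26 of 16288 genes called). This call was kept with a pseudocount of 0.5 (limma adjusted p = 0.039). It was lost without the replicate block (limma adjusted p = 0.12) and without the variance trend (limma adjusted p = 0.087). Leaving out single libraries, which also took out the block, gave log2 differences between -2.81 and -2.09. TCALIF_11866 was lower in 2 of 2 libraries of 20V in SC-N and higher in 2 of 2 in SD-S, against the 20NV libraries of each. No other member was called in any of the 6 differences tested. For 20V vs 20NV the unadjusted p of limma was under 0.05 for 6 of 15 members in SC-N minus SD-S, 8 of 14 in SC-N minus BR-S and 2 of 13 in BR-S minus SD-S, and for 28V vs 20V it was so for 4 of 15, 1 of 14 and 1 of 13 members in the same order. The share of all genes under this unadjusted limit was not counted for the differences, so nothing can be read from these member counts. For comp44700, the difference between SC-N and BR-S was 3.55 (SE 0.56, limma adjusted p = 0.16), and between SC-N and SD-S it was 4.19 (SE 0.84, limma adjusted p = 0.11).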

How the data were processed

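The authors mapped unstranded 100-bp single-end reads with CLC Genomics Workbench first to genomic transcripts and then, for the reads left over, to de novo transcripts. Reads with several matches were dropped, as were genes reaching 2 cpm in fewer than 2 of 4 libraries. Without strand, overlapping genes cannot be told apart. The signal deposited by the authors, 1 table for each of 12 combinations of population and comparison, is the cpm of these counts on a library size scaled by TMM in edgeR. The log2 fold changes, p-values and false discovery rates of the authors in the same tables were not used. Whole reads were recovered in all 48 columns (100% of entries, within 6e-05 reads). The precision of a value is set by 2 pools per treatment. None of the 21556 identifiers matched the RefSeq gene list, so no coordinates or sequences are given.

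The main test was limma 3.58.1 in R 4.3.3 on log2(value + 1), with a variance trend, the column suffix as replicate block and Benjamini-Hochberg adjustment over all genes of a table (threshold 0.05, two-sided). With 1 residual degree of freedom, the tests lean on the spread shared over genes. The paper used the sequencing lane as a block, and the replicates of SD-S and SC-N also ran on different instruments. The suffix stands in for it, and suffix differences correlated between the treatments of a table between -0.27 and 0.48, over 0.1 in 8 of 12 tables. Differences between populations were fitted on genes in both tables, with a block per population. Alternatives used edgeR 4.0.16 and DESeq2 1.42.0 on the recovered reads, other pseudocounts, filters and trends, and left out each library in turn. The fits that left out a library had no replicate block, so the loss of the library and of the block cannot be told apart. The fits were tested on simulated data.

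The members and lists were chosen with earlier results of these data known. Lists were made by words in the authors' descriptions, which cover mostly genes that the study called changed. Named genes are members among the 10 highest in 28ST, in 20V to 20NV or in 28ST to 20NV in BB-N, in a list, called in another population or just inside a limit, with genes just outside a limit and genes removed by name. Of the genes just outside a limit, 1 is not reported here.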

Additional observations from a re-analysis of the deposited data

Results flagged for a closer look

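The 20V vs 20NV response of TCALIF_11866, the small heat-shock protein, differed between populations in the test of the difference itself. The log2 difference of SC-N minus SD-S was -2.45 (SE 0.29, limma adjusted p = 0.042). In SC-N its values were 29.8 and 30.7 cpm in 20V and 41.2 and 42.1 cpm in 20NV, and in SD-S they were 30.7 and 44.5 cpm in 20V and 6.41 and 11.2 cpm in 20NV. The 4 libraries of 20V were thus close between the populations, and the 20NV libraries were not, although levels of different populations come from tables scaled apart. The difference kept its direction in every alternative run. With all libraries kept, it was called with a pseudocount of 0.5 but not without the replicate block or the variance trend. Leaving out single libraries, which also took out the block, gave log2 differences between -2.81 and -2.09.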

How the results depend on the processing

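With 2 libraries per treatment, calls of single members depended on the fit: over the alternatives of the called members and of the tested difference, 52 of 120 kept the call, 68 lost it and 0 changed direction. The fits among these that left out a library also had no replicate block. Without the block and with all libraries kept, 20V vs 20NV gave 1 member called in SC-N and 0 in SD-S. For 28V vs 20V it gave 0 in SC-N and 0 in BR-S. For 20V vs 20NV in SC-N (0 called), edgeR's likelihood ratio test called 7, beside 1555 of 18326 genes called higher and 916 lower. DESeq2 called 5 there, beside 588 genes called higher and 344 lower. In SD-S (3 called) DESeq2 called 1, beside 113 of 17929 genes called higher. For 28V vs 20V in SC-N (6 called), the likelihood ratio test, the quasi-likelihood test and DESeq2 called 2 each, all higher. For BR-S (1 called), a pseudocount of 0.5, no variance trend and a mean value of at least 10 gave 0 each. With the last filter the median member log2 fold change in 28V vs 20V was -0.26 in SC-N and -0.14 in SD-S.

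Leaving out single libraries also took out the replicate block, so only median log2 fold changes of the members are given. The medians then lay between 0.62 and 0.95 in SC-N, -0.55 and 0.04 in BR-S, and 0.07 and 0.61 in SD-S when 20V was set against 20NV, and between -0.18 and 0.11, -0.43 and 0.24, and -0.14 and 0.18 in the same populations for 28V vs 20V. The suffixes of 20V and 20NV in BR-S correlated at -0.27, and with crossed suffixes, chosen after seeing the data, limma called 75 genes and 0 members there. Under other limits of the rule there were 59 genes at a ratio of 1.5, 5 at a ratio of 2, 135 without the limit on 28V to 20V and 6 where each suffix had to reach 1.7. A level of 5 cpm gave 22 genes and 0.5 added to each mean gave 21, with 17 and 15 of the 17 members among them. The cause of these changes was not tested.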
